A study of Mus musculus with 9 samples.

Results

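The mRNAs of 8 genes of the dystrophin-glycoprotein complex (Dmd, Utrn, Dag1, Sgca, Sgcb, Sgcd, Dtna and Sspn) were followed through the differentiation of C2C12 cells, an established mouse myoblast line that fuses into myotubes when growth serum is replaced by horse serum. The genes were chosen by symbol, matched from the Ensembl identifiers of the count table, and are 8 of its 47729 genes. Groups combined a genotype with a day. WT cells carried a non-target guide RNA, Per1KO cells a CRISPR-Cas9 knockout of Per1 and Per2KO cells a CRISPR-Cas9 knockout of Per2, each sampled undifferentiated (day 0) and on days 3 and 5 of differentiation. Each genotype and day had 1 library, 9 in all, from 1 cell population per genotype. Whether a population was a clone or a pool is not given in the sources used here, and the tissue field of the labels reads whole muscle although the cell line field reads C2C12. The proteins of Per1 and Per2 are repressors within the circadian clock.

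Dystrophin, encoded by Dmd, ties the actin cytoskeleton of a muscle fibre to dystroglycan in the membrane, and dystroglycan binds laminin outside the cell. The sarcoglycans and sarcospan form a membrane subcomplex beside dystroglycan, and dystrobrevin and the syntrophins bind dystrophin on the inner side. Loss of dystrophin or of a sarcoglycan leaves the fibre membrane fragile, and mutations in Dmd and in the sarcoglycan genes cause muscular dystrophies. Utrophin, encoded by Utrn, is the autosomal relative of dystrophin and in adult muscle is concentrated at the neuromuscular junction.

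Total counts ran from 5020385 to 6773320 in WT and from 41997763 to 48051824 in the knockouts (the lowest knockout total was 6.20 times that of the deepest WT library). Only titles of WT samples end in a lane suffix. Depth, lane and knockout state therefore cannot be told apart where a knockout is set against WT. Levels are given in CPM, the counts of a gene per 1000000 counts of its library, after scaling between libraries by TMM (the trimmed mean of M values). A level of 3 counts, the limit that a count of 0 allows, was 0.424 to 0.66 CPM in WT and 0.0591 to 0.0731 CPM in the knockouts. Intervals and limits cover counting error only: with no molecular identifiers, 2 reads can stem from 1 molecule. The mRNA of the targeted genes did not separate the knockouts from each other. Per1 stood at 35.6, 33.8 and 31 CPM over days 0, 3 and 5 in WT, 20.9, 32.4 and 28.9 CPM in Per1KO and 16.5, 30.4 and 32.9 CPM in Per2KO. Per2 stood at 9.74, 11.5 and 20.5 CPM in WT, 6.59, 9.44 and 10.6 CPM in Per1KO and 3.50, 9.13 and 8.38 CPM in Per2KO. Gene counts cover the whole gene, and a CRISPR-Cas9 edit need not lower them. Per2 was lower in Per2KO by a fitted log2 change of -1.02 ± 0.24 (SE, edgeR adjusted p = 0.023), a call lost without the WT day 5 (-0.86, adjusted p = 0.0969), Per2KO day 0 (-0.81, 0.0744) or Per2KO day 5 library (-0.98, 0.103) and in the 6 libraries of the 2 genotypes alone (-1.03, 0.0641). It was -0.62 ± 0.24 in Per1KO (adjusted p = 0.111), and Per1 was not called in Per1KO (-0.34 ± 0.22, adjusted p = 0.31) or Per2KO (-0.40 ± 0.22, adjusted p = 0.232).

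Markers fixed for 7 cell classes were read in all libraries. All 6 myoblast and myotube markers (Myod1, Myf5, Des, Myog, Myh3 and Ckm) were above 1 CPM in at least 1 library of each genotype. The defining genes of adipocytes (Adipoq and Lep), endothelium (Emcn) and macrophages (Adgre1) had 0 counts in every library, and Pecam1, Ptprc and Sox10 reached at most 4 counts. Of the adult fibre markers 5 of 6 passed 1 CPM, with summed levels of 306 to 1509 CPM in WT, 187 to 1029 CPM in Per1KO and 143 to 746 CPM in Per2KO. Adipocyte markers summed to 9.67 to 30.9 CPM over all libraries, from Cebpa and Pparg, and the endothelial, macrophage and Schwann cell lists to at most 3.62, 2.86 and 3.48 CPM. In the remaining lists the called genes with the largest changes were Actn3, lower in both knockouts, Cebpa, lower in Per1KO, Myh4 and Tek, higher on day 5, and Pparg and Mbp, lower on day 5. All 6 fibroblast or fibro-adipogenic progenitor markers were present, with a summed level of 718 to 1439 CPM in WT, 295 to 1351 CPM in Per1KO and 252 to 1519.8 CPM in Per2KO. Among them Dcn, which encodes the matrix proteoglycan decorin, went from 51.5 to 603 CPM between days 0 and 5 in WT, from 6.57 to 728 CPM in Per1KO and from 13.7 to 814 CPM in Per2KO (adjusted p = 9.02e-04), the same days on which the members rose. Of the 6, 3 were called higher on day 5 (Cd34, Dcn and Dpt), against 23.2% of all genes, and 3 were not called. Between those days Pdgfra went from 22.6 to 22.7 CPM in WT. Ly6a went from 378 to 207 CPM in WT but from 156 to 434 CPM in Per1KO and from 140.1 to 486 CPM in Per2KO. The part of those markers in the results was not tested, and in bulk RNA fewer cells of a type and less RNA per cell cannot be told apart.

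The 250 bases before the start, from RefSeq on GRCm38.p6, are shown for Dmd and Sgca, which rose most steeply with differentiation, and for Sgcd, which differed between the knockouts and WT. Capitals mark the E-box CANNTG, the core bound by MYOD1 and MYOG and, as CACGTG, by CLOCK and BMAL1. The first Dmd start lies after chrX:82948620-82948869 on the plus strand, and the second, 2099 kb further along the gene, after chrX:85048045-85048294. The Sgca window is chr11:94976328-94976577 on the minus strand and the Sgcd window chr11:47379326-47379575 on the minus strand, and both are printed 5′ to 3′ along the gene. The Sgcd start in that table is internal to the annotated gene.
Dmd first start: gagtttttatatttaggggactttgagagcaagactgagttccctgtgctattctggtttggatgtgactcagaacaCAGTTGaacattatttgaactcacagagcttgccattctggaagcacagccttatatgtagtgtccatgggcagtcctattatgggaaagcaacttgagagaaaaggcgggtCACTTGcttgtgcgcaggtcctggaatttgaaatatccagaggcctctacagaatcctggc
Dmd second start: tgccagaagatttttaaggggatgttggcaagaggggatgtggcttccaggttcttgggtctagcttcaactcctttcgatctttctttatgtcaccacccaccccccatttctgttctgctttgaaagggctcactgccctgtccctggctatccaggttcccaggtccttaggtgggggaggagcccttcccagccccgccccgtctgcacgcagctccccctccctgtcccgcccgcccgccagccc
Sgca: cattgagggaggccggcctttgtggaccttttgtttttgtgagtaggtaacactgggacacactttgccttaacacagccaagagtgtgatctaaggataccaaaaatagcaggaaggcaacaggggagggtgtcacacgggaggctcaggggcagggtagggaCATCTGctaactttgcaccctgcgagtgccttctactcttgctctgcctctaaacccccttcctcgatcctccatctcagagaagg
Sgcd: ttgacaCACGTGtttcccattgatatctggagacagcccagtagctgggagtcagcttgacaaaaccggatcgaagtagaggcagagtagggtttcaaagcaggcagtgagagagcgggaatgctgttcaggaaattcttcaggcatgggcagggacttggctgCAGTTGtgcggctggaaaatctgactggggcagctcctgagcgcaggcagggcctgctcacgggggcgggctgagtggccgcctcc
The first Dmd window held 2 E-boxes, starting 173 and 61 bases before the start, and 1 match to the MEF2 motif, whereas the second held neither but had 3 matches to the GC box GGGCGG. Sgca held 1 E-box, CATCTG, 86 bases before its start. Sgcd held CACGTG at 244 and CAGTTG at 86 bases before its start. The RefSeq table held 10 windows for 7 of the 8 genes, with no entry for Dtna, and 7 of the 10 had an E-box. Searched on both strands, CANNTG was found in 66.2% of all 32851 promoter windows of the same length, CACGTG, which is one kind of CANNTG, in 6.02%, GGGCGG in 32.7% and the MEF2 motif in 2.92%. A match describes the letters only.

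Most of these mRNAs rose with differentiation, Dmd and Sgca most. All 8 were tested among the 13324 genes that reached 1 CPM in 3 or more libraries. Dmd reached it in its 3 day 5 libraries alone, so it entered the test only through the day on which it was high, and its calls count as a description. On day 3, 7 of the 8 were higher than on day 0 by edgeR's quasi-likelihood test (adjusted p under 0.05), against 18.1% of all genes, and on day 5 it was again 7 of 8, against 23.2% of all genes. Without Dmd it was 6 of 7 on each day. Utrn missed the threshold on day 3 and Dtna on day 5. The median fitted log2 change of the members was 1.09 on day 3 and 1.53 on day 5, where the median of all genes was -0.01 both times, and without Dmd the members' medians were 1.03 and 1.51. All 3 day 3 libraries lay above all 3 day 0 libraries for 6 of the 8 genes, against 19.8% of all genes, and all 3 day 5 libraries did so for 7 of the 8, against 23.9%. Both counts include Dmd, which passed the filter only through day 5. On day 3 its WT library held 1 count (0.182 CPM), against 1 count (0.0203 CPM) in Per1KO on day 0. In the 6 knockout libraries alone, all 8, Dmd included, were called on both days. There 3882 of the 13324 genes were called higher on day 3 and 4286 on day 5. The genotypes stand in for replicates of a day in these fits and the days for replicates of a genotype, with 4 residual degrees of freedom, so p-values measure the spread among these libraries and not among separate cultures.

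**Figure D1:**
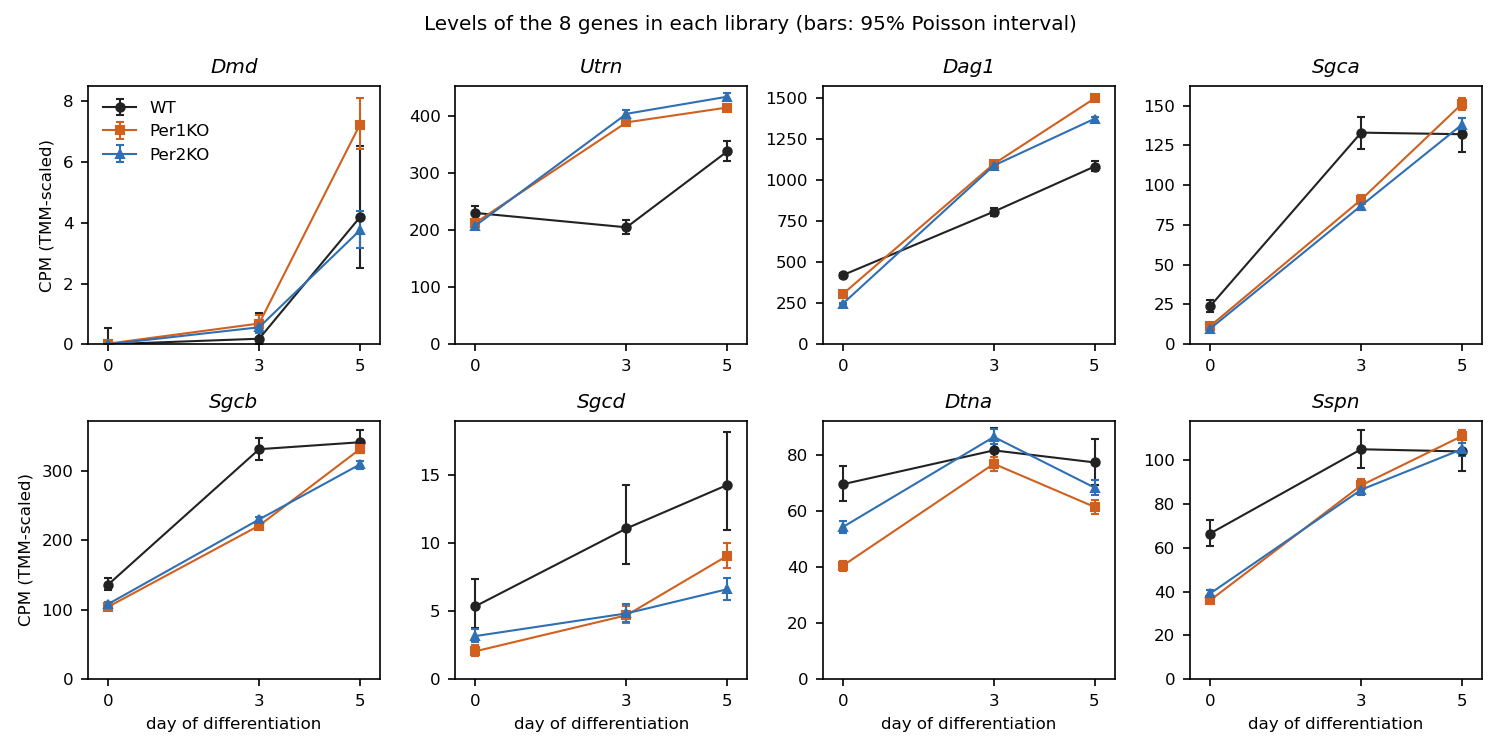
TMM-scaled CPM (y axis, linear, starting at 0) of each of the 8 genes against day of differentiation for WT, Per1KO and Per2KO, 1 library per point, with 95% Poisson intervals as bars. Dmd was at or near 0 on day 0 in all genotypes, Sgca went from 9.76 to 23.9 CPM on day 0 to 132 to 151 CPM on day 5, and the WT points of Sgcd lay above the knockout points on every day.

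Dmd, the cytoskeletal anchor, went from at most 1 count on day 0 to clear detection on day 5. On days 0, 3 and 5 it had 0, 1 and 19 counts in WT (0, 0.182 and 4.18 CPM). In Per1KO it had 1, 33 and 301 counts (0.0203, 0.683 and 7.23 CPM), and in Per2KO 0, 27 and 154 counts (0, 0.559 and 3.75 CPM). All 3 genotypes were thus at or below the limit of detection on day 0 and above it on day 5. Set against the limit of 3 counts per library on day 0, the day 5 level of Dmd was 9.86-fold higher in WT and 63.5-fold higher in Per2KO. Both ratios leave out the counting error of the day 5 counts, so they are not lower bounds. In Per1KO, where day 0 had 1 count, the ratio was 357 (95% counting interval 63.5 to 14129). Between days 3 and 5 the ratio was 10.6 (7.37 to 15.7) in Per1KO, 6.71 (4.44 to 10.5) in Per2KO and 22.9 (3.64 to 952) in WT, where day 3 had 1 count. The fits called Dmd higher on day 3 (adjusted p = 7.4e-04) and on day 5 (adjusted p = 1.99e-05) against day 0, with the limit that only its day 5 libraries passed the low-count filter.

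On day 5 against day 3, 0.698% of all genes were called higher, and of the members Dmd alone (adjusted p = 0.00454), from which nothing is read because its day 5 libraries admitted it to the test. Without the Per1KO day 3 library its adjusted p was 0.0531, and without the Per1KO day 5 library 0.087. The median change of the members from day 3 to day 5 was 0.38 on the log2 scale, or 0.35 without Dmd, and 0.00 for all genes. In the 6 knockout libraries alone Sgca (0.70 ± 0.08, adjusted p = 0.00647) and Sgcb (0.50 ± 0.08, adjusted p = 0.015) were called beside Dmd. The gene-level counts do not distinguish the full-length dystrophin mRNA from shorter ones begun at later starts.

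Utrn, encoding utrophin, was present from the outset. Over days 0, 3 and 5 it stood at 230.2, 205 and 338 CPM in WT, 213, 389 and 415 CPM in Per1KO and 208, 404 and 434 CPM in Per2KO. The WT day 3 library was the low point, below all day 0 libraries. The change on day 5 was 0.84 ± 0.21 (log2, SE, adjusted p = 0.0128) and on day 3 it was 0.56 ± 0.21 (adjusted p = 0.0727). The day 5 call was lost without the Per1KO day 0 library (0.74, adjusted p = 0.0771) or the Per2KO day 0 library (0.69, adjusted p = 0.065). On day 3 Utrn was called without the WT day 3 library (0.83, adjusted p = 0.00815) or the WT day 0 library (0.82, adjusted p = 0.00597), in the 6 knockout libraries alone (0.91, adjusted p = 1.65e-04) and by DESeq2 (0.55, adjusted p = 0.039).

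Reads of Dmd among those of Dmd and Utrn together do not depend on library scaling. In WT the share was 0 of 1630 reads on day 0, which allows up to 0.184%, then 0.089% on day 3 (95% Clopper-Pearson interval 0.00225 to 0.495) and 1.22% on day 5 (0.736 to 1.90). Per1KO went from 0.00951% (0.000241 to 0.053) through 0.175% (0.121 to 0.246) to 1.71% (1.52 to 1.91). Per2KO went from 0 of 10579 reads, which allows up to 0.0284%, through 0.138% (0.0909 to 0.201) to 0.857% (0.727 to 1.0). Utrn supplied nearly all reads of this pair on each day, without adjustment for length, and the WT interval on day 5 overlapped both knockouts' intervals.

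**Figure D2:**
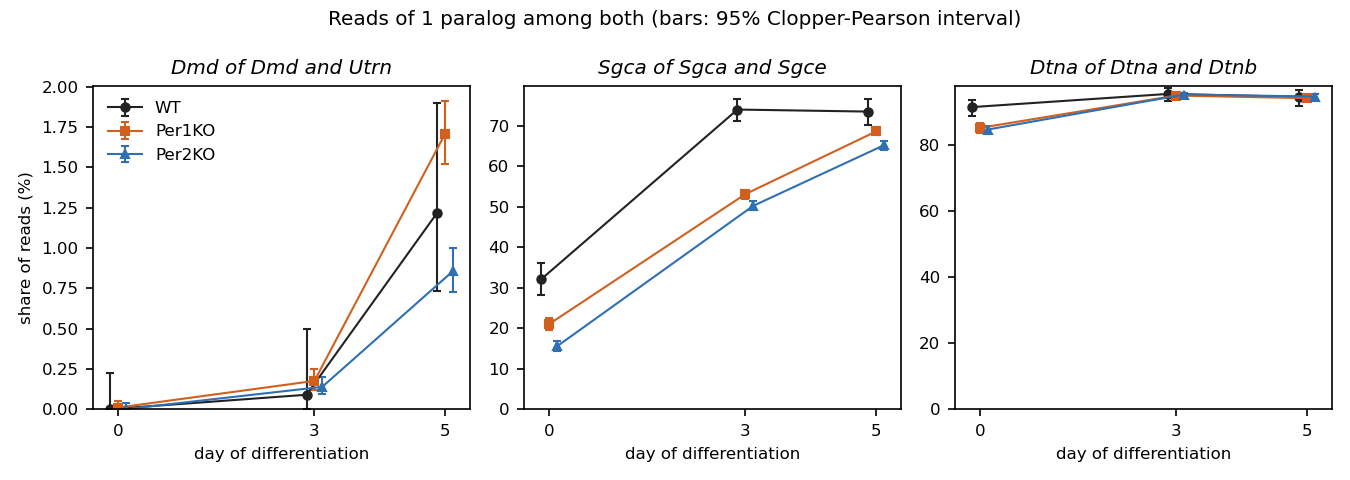
Share of reads (y axis, %, linear) from the first of 2 related genes against day for Dmd with Utrn, Sgca with Sgce and Dtna with Dtnb, 1 point per library with 95% Clopper-Pearson intervals. Dmd stayed at or under 1.71% in all libraries, the Sgca share was 15.5% to 32.1% on day 0 and 65.2% to 73.5% on day 5, and Dtna supplied 84.7% or more throughout.

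Dag1, which encodes both subunits of dystroglycan, was the most abundant member by level per length. Across the 3 days it measured 421, 808 and 1083 CPM in WT, 306, 1099 and 1498 CPM in Per1KO and 247, 1089 and 1374 CPM in Per2KO. WT was the highest of the genotypes on day 0 and the lowest on days 3 and 5. Dag1 rose by 1.62 ± 0.24 on day 3 (log2, adjusted p = 0.00211) and by 2.02 ± 0.25 on day 5 (adjusted p = 4.68e-04). From day 0 to day 5 the level was multiplied by 2.57 in WT, 4.89 in Per1KO and 5.56 in Per2KO.

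The sarcoglycan genes Sgca, Sgcb and Sgcd encode single-pass membrane proteins of the subcomplex. Sgca measured 23.9, 133 and 132 CPM in WT, 11.4, 90.9 and 151 CPM in Per1KO and 9.76, 87.1 and 138 CPM in Per2KO, in the order of days. All WT gain came by day 3, while both knockouts were lower than WT on days 0 and 3 and at or slightly above it on day 5. The rise was 2.87 ± 0.25 on day 3 (log2, adjusted p = 2.32e-04) and 3.37 ± 0.26 on day 5 (adjusted p = 5.44e-05), the steepest of the members other than Dmd. The day 5 level was 5.51 times the day 0 level in WT, 13.2 times in Per1KO and 14.1 times in Per2KO.

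Sgcb measured 136, 331 and 341 CPM in WT, 104, 221 and 331 CPM in Per1KO and 108, 229.9 and 309 CPM in Per2KO over the same days. It too was lower in the knockouts, most on day 3. It rose by 1.16 ± 0.13 on day 3 (log2, adjusted p = 6.17e-04) and by 1.51 ± 0.13 on day 5 (adjusted p = 9.08e-05). Sgcd had only 38 to 378 counts a library, at 5.37, 11.1 and 14.3 CPM in WT, 2.05, 4.70 and 9.08 CPM in Per1KO and 3.17, 4.84 and 6.62 CPM in Per2KO. In each genotype the level was higher from day to day, and WT was the highest on each day. It rose by 1.55 ± 0.23 on day 5 (adjusted p = 0.00121). Its rise on day 3, 0.92 ± 0.23 (adjusted p = 0.0175), was lost without the Per1KO day 0 (0.70, adjusted p = 0.089), Per1KO day 3 (0.97, adjusted p = 0.0605) or Per2KO day 3 library (0.98, adjusted p = 0.0698).

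Sspn encodes sarcospan, the tetraspanin-like partner of the sarcoglycans. From day 0 through day 5 it measured 66.5, 105 and 104 CPM in WT, 36.0, 88.5 and 111 CPM in Per1KO and 39.1, 86.5 and 105 CPM in Per2KO. The genotypes differed most on day 0 and least on day 5. Sspn rose by 1.03 ± 0.18 on day 3 (log2, adjusted p = 0.00436) and by 1.24 ± 0.18 on day 5 (adjusted p = 0.00116).

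Dtna encodes alpha-dystrobrevin, a scaffold for syntrophins and signalling proteins, and was the member with the smallest change on day 5. Its levels, ordered by day, were 69.6, 81.7 and 77.4 CPM in WT, 40.5, 76.9 and 61.5 CPM in Per1KO and 54.3, 86.5 and 68.4 CPM in Per2KO. The day 5 and day 0 libraries overlapped, and in each genotype day 3 was the highest day. Dtna rose by 0.62 ± 0.14 on day 3 (log2, adjusted p = 0.0134), while the change on day 5 was 0.36 ± 0.14 (adjusted p = 0.0706). The day 3 call was lost in 5 of 15 alternatives, with adjusted p of 0.0768 and 0.0777 without the Per1KO day 0 and day 3 libraries, 0.0555 and 0.0778 without the Per2KO day 0 and day 3 libraries and 0.0565 in the libraries of those 2 days alone. The day 5 change was called without the WT day 0 library (0.50, adjusted p = 0.0102) or the WT day 3 library (0.37, adjusted p = 0.0321).

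**Figure D3:**
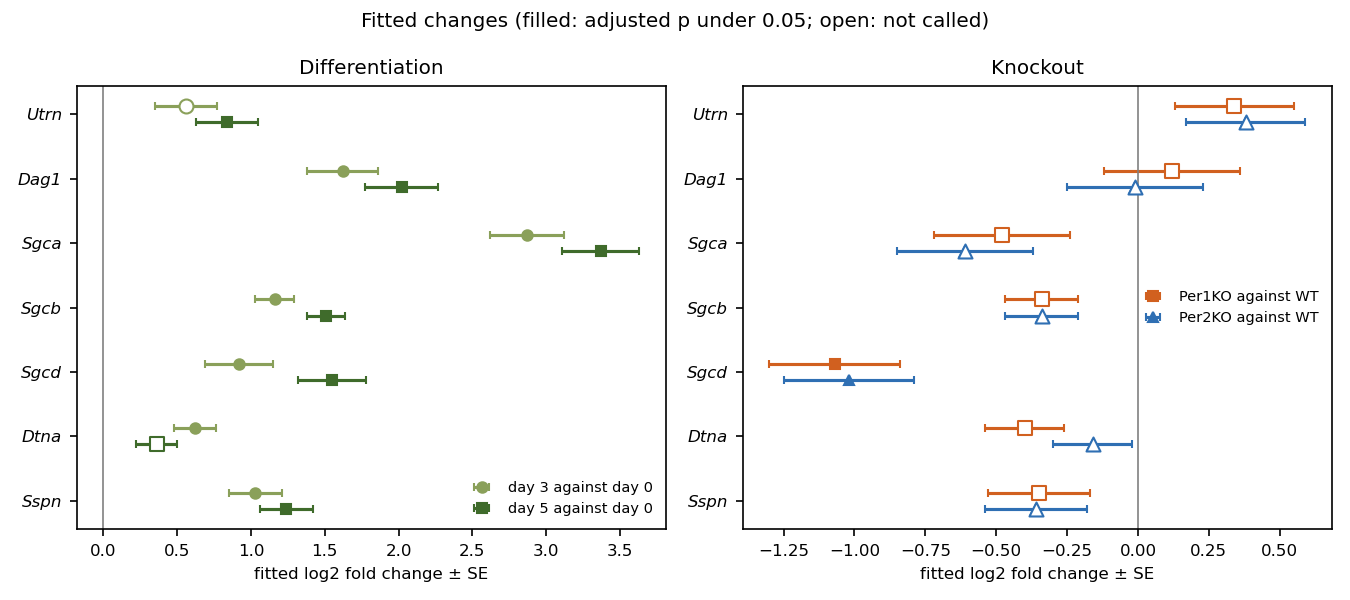
Fitted log2 fold change ± SE (x axis) of 7 of the genes, leaving out Dmd because its fold rests on counts of 0, for day 3 and day 5 against day 0 (left) and for each knockout against WT (right), with filled symbols for adjusted p under 0.05 and open symbols otherwise. Sgca was at 3.37 on day 5 and Dtna at 0.36, and on the right Sgcd, at -1.07 and -1.02, had the only filled symbols.

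Levels of different genes were compared per kb of the longest annotated transcript (GENCODE M21, GRCm38), as medians of the 3 libraries of a day. On day 5 the order was Dag1 (243 CPM per kb, range 191 to 265), Sgcb (87.5, 81.5 to 90.1), Sgca (80.0, 76.3 to 87.6), Utrn (33.5, 27.3 to 35.0), Sspn (23.3, 23.1 to 24.6), Dtna (10.9, 9.77 to 12.3), Sgcd (2.04, 1.49 to 3.21) and Dmd (0.28, 0.252 to 0.485). Only the ranges of Sgcb and Sgca overlapped between neighbours in that order. On day 0 Dag1 was again first at a median of 54.1 CPM per kb, with Sgcb at 28.4 and Utrn at 17.2. Sgca, at 6.63, was then below Sspn (8.66) and Dtna (8.62), and these 3 ranges overlapped. The sarcoglycan mRNAs were thus unequal: on day 5 Sgcd stood at 2.04 CPM per kb while Sgca and Sgcb stood well above it. The 8 genes span from 13.5 kb (Sgca) to 2257.3 kb (Dmd) of genome, and the scarcest members, Dmd and Sgcd, have the longest spans (Sgcd 1092.7 kb). Those spans are introns for the most part and were not used in any value. Utrn spans 487.2 kb and stood above Sspn, which spans 33.6 kb. A link between span and level was not tested.

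Each knockout was then compared with WT. Sgcd was the one member called. By the fits over all days, 1 of the 8 was lower in Per1KO, against 10.1% of all genes, and 1 of the 8 in Per2KO, against 10.6%, while none was higher, against 9.26% and 9.31% of all genes. Those shares are near the background. The members' median change was -0.35 in Per1KO and -0.25 in Per2KO (-0.34 without Dmd), and the medians of all genes were -0.02 and -0.01. Both comparisons share the 3 WT libraries, so they are not independent.

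Sgcd was lower in Per1KO by a log2 change of -1.07 ± 0.23 (adjusted p = 0.0177) and in Per2KO by -1.02 ± 0.23 (adjusted p = 0.0206). Both knockouts were under WT on each day, by -1.36, -1.23 and -0.65 in Per1KO and -0.75, -1.19 and -1.10 in Per2KO on days 0, 3 and 5 (log2 CPM, single libraries). The Per1KO call was lost without the WT day 3 (-0.97, adjusted p = 0.0621), Per1KO day 0 (-0.87, adjusted p = 0.0666) or Per1KO day 3 library (-1.03, adjusted p = 0.0759). The Per2KO call was lost without the WT day 3 (-0.92, adjusted p = 0.0713), Per2KO day 3 (-0.97, adjusted p = 0.103) or Per2KO day 5 library (-0.85, adjusted p = 0.106). WT counts of Sgcd were 38, 61 and 65.

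The other 7 genes were not called. Sgcb was -0.34 ± 0.13 in each knockout (adjusted p = 0.105 and 0.102) and below WT on all days. Sgca was -0.48 ± 0.24 and -0.61 ± 0.24, and was called without the WT day 5 library (-0.80, adjusted p = 0.0324, and -0.93, adjusted p = 0.0189). Dtna was -0.40 ± 0.14 in Per1KO (adjusted p = 0.0871), called without the WT day 3 library (-0.54, adjusted p = 0.0366), and -0.16 ± 0.14 in Per2KO. Sspn was -0.35 ± 0.18 and -0.36 ± 0.18 (adjusted p = 0.207 and 0.198). Utrn was 0.34 ± 0.21 and 0.38 ± 0.21, and was called higher in both without the WT day 0 library (0.61, adjusted p = 0.0334, and 0.64, adjusted p = 0.0279). Dag1 was 0.12 ± 0.24 and -0.01 ± 0.24, and was called higher in Per1KO without the WT day 0 library (0.50, adjusted p = 0.0235). Dmd had adjusted p of 0.173 and 0.99.

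By day, both knockouts stood below WT on day 0 for 7 of the 8 genes, all but Dmd, whereas 43.8% of all genes did so. On all 3 days both were below WT only for Sgcb and Sgcd, 2 of the 8, against 20.0% of all genes. On day 0 the differences in log2 CPM ran from -0.11 (Utrn in Per1KO) to -1.36 (Sgcd in Per1KO). On day 5 Utrn and Dag1 were above WT in both knockouts (0.29 to 0.47), and Sgca and Sspn differed by 0.01 to 0.20. Of 8 differentiation reference genes, 7 rose on day 5, against 23.2% of all genes (median 5.37 on the log2 scale). Of the 8, Myog alone, a myogenic transcription factor, was called lower in both knockouts (-2.80 ± 0.72, adjusted p = 0.0325, and -3.18 ± 0.73, adjusted p = 0.0217). Of all genes, 10.1% and 10.6% were lower in Per1KO and Per2KO. The Per1KO call was lost without any 1 of the Per1KO libraries or the Per2KO day 3 or 5 library (-2.24 to -3.05, adjusted p = 0.062 to 0.15). The Per2KO call was lost without any 1 of the Per2KO libraries or the Per1KO day 3 library (-2.44 to -3.55, adjusted p = 0.0606 to 0.0741), and both were lost without the low-count filter (adjusted p = 0.193 and 0.152) and in the 6 libraries compared alone (0.0785 and 0.139). On day 5 Myog and Myh3 were still far lower in the knockouts, whereas Ckm, like Utrn and Dag1, was higher. Myog was 124 CPM in WT on day 0 against 5.35 and 2.91 in Per1KO and Per2KO, and 1060.4 CPM against 351 and 271 on day 5. Myh3, the embryonic myosin heavy chain, was 140 CPM against 2.51 and 0.787 on day 0 and 7214 CPM against 3216 and 2423 on day 5. Ckm was 10.6 CPM in WT on day 0 against 0.345 and 0.236, and 276 CPM against 435 and 332 on day 5. The part of these markers in the members' differences was not tested.

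**Figure D4:**
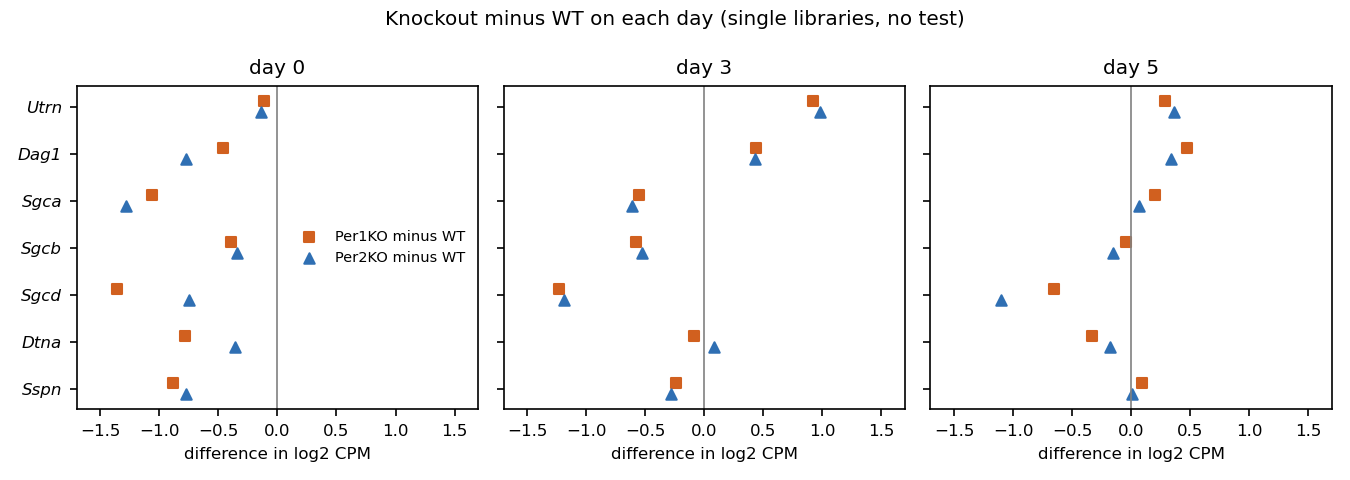
Difference in log2 CPM between each knockout library and the WT library of the same day (x axis) for 7 genes on days 0, 3 and 5, 1 point per library pair, with no test. All points on day 0 are left of 0, Utrn and Dag1 are right of 0 on days 3 and 5, and Sgcd stays left of 0 on every day.

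Whether the change from day 0 to days 3 and 5 differed between the knockouts and WT was tested as an interaction, with 3 residual degrees of freedom. It was called for 1 of the 8, Dag1, with 3.50% of all genes called higher. The Dag1 term was 1.03 ± 0.19 on the log2 scale (adjusted p = 0.0293), a larger rise in the knockouts. Leaving out a knockout library ended the call each time, with adjusted p of 0.0649, 0.0503 and 0.0732 for Per1KO days 0, 3 and 5 and of 0.134, 0.112 and 0.075 for Per2KO days 0, 3 and 5 (terms 0.91 to 1.16). Sgca was 0.94 ± 0.30 (adjusted p = 0.119), called without the WT day 3 library (1.31, adjusted p = 0.00935) or the WT day 5 library (0.60, adjusted p = 0.0494). Utrn was 0.75 ± 0.25 (adjusted p = 0.134), called without the WT day 5 library (1.08, adjusted p = 0.0092). Sspn was 0.72 ± 0.19 (adjusted p = 0.0776), called without the WT day 3 library (0.88, adjusted p = 0.0236) or with DESeq2 (0.70, adjusted p = 0.0376). Sgcb (0.03 ± 0.22), Sgcd (0.00 ± 0.38) and Dtna (0.44 ± 0.19) were not called, and the median term without Dmd was 0.72 against 0.01 for all genes. No fit of this term could be made without the WT day 0 library. Among the companion lists it was called for the partner Cav3, the integrin-linked Vcl and 5 of 14 matrix genes (Hspg2, Lama2, Lama5, Lamb2 and Nid2), and for 5 of the 8 differentiation reference genes (Acta1, Ckm, Myh3, Mymk and Myog), each higher.

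The 2 knockouts were compared with each other over the 3 days. No member was called, and neither was any other gene, 0.00% of 13324, by edgeR. There were 88 genes at an unadjusted p under 0.05, and DESeq2 called 1. The fitted differences, Per1KO over Per2KO, were 0.13 ± 0.23 for Sgca, 0.00 ± 0.13 for Sgcb, -0.05 ± 0.22 for Sgcd, 0.14 ± 0.23 for Dag1, -0.03 ± 0.21 for Utrn, 0.01 ± 0.18 for Sspn and -0.24 ± 0.14 for Dtna (log2, SE). For Dmd the unadjusted p was 0.0564 and the adjusted p 1.00, with 301 against 154 counts on day 5.

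Relatives of the members within the complex did not all follow them. Sgce, the broadly expressed relative of Sgca, was 50.6, 46.7 and 47.5 CPM in WT, 43.1, 80.2 and 69.1 CPM in Per1KO and 53.2, 86.3 and 73.8 CPM in Per2KO, and was called on neither day (0.50 ± 0.19 and 0.35 ± 0.19 for days 3 and 5, adjusted p = 0.0726 and 0.163). It was called on both without the WT day 0 library (0.76, adjusted p = 0.00182, and 0.61, 0.0037) and on day 3 without the WT day 3 library (0.69, 0.0273). In the 6 knockout libraries alone Sgce was also called on both days (0.80, adjusted p = 5.42e-04, and 0.57, 0.0016). Reads of Sgca among those of Sgca and Sgce went from 32.1% (95% Clopper-Pearson interval 28.1 to 36.2) to 73.5% (70.3 to 76.5) in WT, from 21.0% (19.5 to 22.6) to 68.6% (67.6 to 69.6) in Per1KO and from 15.5% (14.3 to 16.8) to 65.2% (64.1 to 66.2) in Per2KO. The WT share was the highest on each day, and its interval lay above both knockouts' intervals.

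Dtnb, which encodes beta-dystrobrevin, fell by 1.00 on the log2 scale on day 5 (SE 0.19, adjusted p = 0.00384), going from 6.50 to 4.40 CPM in WT, from 7.04 to 3.77 CPM in Per1KO and from 9.80 to 3.85 CPM in Per2KO. Dtna supplied 91.5% of the reads of both dystrobrevins in WT on day 0, 85.2% in Per1KO and 84.7% in Per2KO, and 94.2% to 94.7% in the 3 genotypes on day 5. Drp2, a dystrophin relative known from the Schwann cell complex, was lower in Per1KO (-1.61 ± 0.18, adjusted p = 8.67e-04) and Per2KO (-1.64 ± 0.18, adjusted p = 8.32e-04). It measured 56.1, 84.5 and 106 CPM in WT on days 0, 3 and 5, 14.0, 31.5 and 40.8 CPM in Per1KO and 12.4, 34.6 and 38.9 CPM in Per2KO. The Schwann cell marker Sox10 reached at most 1 count in any library. The drop of Drp2 was called in all 14 alternatives in each knockout and that of Sgcd in 11 of 14.

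Of the 10 other complex genes, 7 were tested. On day 5, 4 of them rose, among them Drp2 and Sntb1, and 2 fell (Dtnb and Sntb2), against 23.2% of all genes higher and 22.9% lower, with a median of 1.08 on the log2 scale against -0.01 for all genes. The syntrophins are adaptors that bind dystrophin and dystrobrevin, and the beta syntrophins split: Sntb1 changed by 1.59 ± 0.21 (adjusted p = 7.39e-04) and Sntb2 by -0.53 ± 0.12 (adjusted p = 0.01). Against WT, Drp2 was the one gene of this list called, lower in both knockouts. For the list, 1 of 7 is near the 10.1% and 10.6% of all genes lower in Per1KO and Per2KO. Of the 13 signalling and cytoskeletal partners, 11 were tested, and on day 5 3 rose (Cav3, Sync and Synm) and 3 fell (Actb, Actg1 and Krt19), with a median of 0.39. Those shares are near the 23.2% of all genes higher and 22.9% lower. Cav3, the muscle caveolin, went from 1.41 to 108 CPM in WT between days 0 and 5, from 0.0203 to 47.9 CPM in Per1KO and from 0 to 34.8 CPM in Per2KO. It was the one partner called lower in the knockouts (-1.79 ± 0.49, adjusted p = 0.041, and -2.06 ± 0.49, adjusted p = 0.0249). For the list, 1 of 11 is again near the share of all genes lower in each knockout, 10.1% and 10.6%. The Per1KO call was lost without any 1 of the WT day 3 and 5, Per1KO day 0, 3 and 5 and Per2KO day 3 and 5 libraries (-1.64 to -2.27, adjusted p = 0.0586 to 0.215). The Per2KO call was lost without any 1 of the WT day 3, Per1KO day 3 and 5 and Per2KO day 3 and 5 libraries (-1.91 to -2.26, adjusted p = 0.0526 to 0.133), and both were lost without the low-count filter (adjusted p = 0.169 and 0.119) and in the 6 libraries compared alone (0.0807 and 0.117). Krt19, a keratin that binds dystrophin, fell by 2.26 on day 5 (SE 0.33, adjusted p = 0.00118).

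Dystroglycan binds laminin only when its sugar chains are complete, and 17 of 18 genes of that glycosylation pathway were tested. On day 5, 8 rose and 1 fell, against 23.2% of all genes higher and 22.9% lower, with a median of 0.43. Pomgnt2, an early glycosyltransferase of the pathway, rose by 1.61 ± 0.31 (log2, adjusted p = 0.00411), from 2.97 to 3.74 CPM in WT, 2.25 to 9.03 CPM in Per1KO and 2.44 to 8.94 CPM in Per2KO. Pomt1, a protein O-mannosyltransferase, fell by 0.52 (SE 0.12, adjusted p = 0.00768), a call lost without the Per1KO day 5 (-0.50, adjusted p = 0.0633) or the Per2KO day 5 library (-0.51, 0.0541).

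Among 14 tested of 16 matrix ligands of dystroglycan and their neighbours, 8 rose on day 5 and 2 fell, against 23.2% of all genes higher and 22.9% lower, with a median of 1.38. Lama2, the laminin chain of adult muscle, rose by 2.07 ± 0.35 (log2, adjusted p = 0.00234) and Lama4 by 4.72 ± 0.32 (adjusted p = 2.97e-05), while Nid1 fell by 1.62 (SE 0.25, adjusted p = 0.00143). In both knockouts 6 of the 14 were lower than in WT (Agrn, Bgn, Col6a1, Col6a2, Col6a3 and Lama4) and none was higher, with medians of -0.55 and -0.54. Of all genes 10.1% and 10.6% were lower and 9.26% and 9.31% higher in Per1KO and Per2KO. Lama4 was 2.97, 19.7 and 44.4 CPM in WT on days 0, 3 and 5, 0.162, 3.60 and 6.77 CPM in Per1KO and 0.276, 5.05 and 10.1 CPM in Per2KO (-2.86 ± 0.29 in Per1KO, adjusted p = 5.42e-04). Col6a2 was 191, 753 and 1011 CPM in WT, 27.5, 231 and 91.0 CPM in Per1KO and 42.1, 186 and 145 CPM in Per2KO (-2.37 ± 0.31 in Per2KO, adjusted p = 0.00179). Of the fibroblast markers, 3 of 6 (Dpt, Cd34 and Pdgfra) were lower in both knockouts, and Dpt on day 5 was 143 CPM in WT, 3.10 CPM in Per1KO and 6.16 CPM in Per2KO. The other 3 were called in neither knockout. Of these, 2 were higher in both knockouts on day 5: Dcn (603 CPM in WT, 728 in Per1KO and 814 in Per2KO) and Ly6a (207, 434 and 486 CPM). Their part in the matrix result was not tested.

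The integrin and talin linkage is the other laminin anchor of muscle, and all 8 of its listed genes were tested. On day 5, 3 rose (Itga7, Itgb1 and Tln2) and none fell, against 23.2% of all genes higher and 22.9% lower, with a median of 0.35, and Itga7, the muscle laminin receptor subunit, rose by 1.35 ± 0.18 (log2, adjusted p = 7.74e-04). Ilk was the one gene called against WT, 3.90 ± 0.33 and 3.96 ± 0.33 higher in Per1KO and Per2KO (adjusted p = 2.42e-04 and 2.27e-04). For the list, 1 of 8 is near the 9.26% and 9.31% of all genes higher in Per1KO and Per2KO. Ilk was 0.22 to 1.84 CPM in WT and 14.4 to 17.9 CPM in the knockouts. Its gene overlaps Rrp8 and Taf10 on the opposite strand, and 17.3% of the 31-mers of its longest transcript occur in another gene's, so its count is uncertain.

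The 8 members did not share one profile. Over the 9 libraries, which share their days and genotypes, the Pearson correlation of log2 CPM was 0.98 for Sgca with Sgcb and with Sspn and 0.96 for Dag1 with Sgca, but 0.33 for Utrn with Sgcd and 0.43 for Utrn with Dtna. The tested genes with the most similar profile, at a mean of at least 10 CPM, were Hfe2 (0.999), Myl1 (0.998) and Tekt5 (0.997) for Sgca, Pja2 (0.997), Lrp4 (0.996) and Ttn (0.996) for Dag1, and Afap1l1 (0.995), Ckm (0.993) and Gprc5c (0.993) for Sspn. For Sgcb they were Nrxn3 (0.997), Sike1 (0.997) and Parp3 (0.995), for Utrn Taok1 (0.993), C1ra (0.992) and C1s1 (0.992), and for Dmd Amigo1 (0.992), Mbnl1 (0.987) and Ubr3 (0.984). For Sgcd they were Klc1 (0.989), Micu2 (0.985) and Coq9 (0.984). Dtna had the least similar neighbours, Capn6 (0.956), Cdkn1b (0.954) and Zfp65 (0.938). These values describe 9 libraries and carry no test. Those of Dmd rest in part on libraries with 0 or 1 counts, and only its day 5 libraries passed the low-count filter, so nothing is read from them.

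In the GENCODE M21 annotation of GRCm38, Dmd (ENSMUSG00000045103) lies at chrX:82948870-85206141 on the plus strand, as do Dtna and Sspn on theirs, and the other 5 on the minus strand. Utrn (ENSMUSG00000019820) lies at chr10:12382188-12869365, Dag1 (ENSMUSG00000039952) at chr9:108204634-108263958, Sgca (ENSMUSG00000001508) at chr11:94962791-94976327, Sgcb (ENSMUSG00000029156) at chr5:73632749-73647790, Sgcd (ENSMUSG00000020354) at chr11:46896253-47988969, Dtna (ENSMUSG00000024302) at chr18:23415135-23659715 and Sspn (ENSMUSG00000030255) at chr6:145931641-145965223. Runs of 31 bases also found in the transcripts of another gene made up 0.202% of the longest transcript of Dmd, 0.176% of that of Dtna and 0% of those of the other 6 members. Sgca overlaps Hils1 on the opposite strand, which had at most 20 counts in a library, and Sspn overlaps the antisense gene Sspnos, which had at most 3.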

How the data were processed

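Poly(A)-selected RNA of 9 C2C12 samples was sequenced as single reads. The authors deposited whole-number read counts per Ensembl gene, used as deposited. The submitters' processing notes name CASAVA 1.8, HISAT2 2.1.0 and build mm10, and the counting program, annotation release, strand and multi-mapping rules are not given in the sources used here. Of 47729 genes, 47224 matched a symbol, and the other 505 held at most 0.0328% of any library's counts.

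The 13324 genes that reached 1 CPM in 3 or more of the 9 libraries were tested with edgeR 4.0.16 (limma 3.58.1, R 4.3.3): TMM scaling, the robust quasi-likelihood F test, Benjamini-Hochberg adjustment over all genes tested, and calls at adjusted p under 0.05. Genotype and day were additive, and the interaction fit added knockout by differentiated state. Standard errors come from the log2 change and its F statistic. Differences between single libraries are in log2 CPM with a prior count of 2. The procedure was tested on simulated counts with the same spread for all genes and changes in a small set of genes only. That setting lacks the broad genotype and day differences of these data, so it does not show how the tests behave under them. Alternatives were other scaling (relative log expression size factors in edgeR, protein-coding genes), no low-count filter, the Wald test of DESeq2 1.42.0, fewer libraries and leaving out each library.

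The members, the gene lists and the markers were chosen with earlier results of these data known. Named genes are the members, Sgce, Dtnb and Drp2, Per1 and Per2, Myog, Myh3 and Ckm, and from each companion and marker list the called genes with the largest rise and fall on day 5 and in each knockout. Sntb1, Sntb2 and Lama2 were added after their values were seen. Some genes that this rule names are not reported here.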

Additional observations from a re-analysis of the deposited data

Results flagged for a closer look

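Dag1 rose more from day 0 to days 3 and 5 in the knockouts than in WT, by 1.03 on the log2 scale (SE 0.19, edgeR adjusted p = 0.0293), by a test of that difference itself. WT stood above both knockouts on day 0, at 421 against 306 and 247 CPM, and below both on day 5, at 1083 against 1498 and 1374 CPM. The call was lost without any 1 of the 6 knockout libraries (0.91 to 1.16, adjusted p = 0.0503 to 0.134). The part of library depth, which follows genotype, was not tested.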

How the results depend on the processing

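Of 780 alternative values for 55 fold changes of the members, 736 stayed on the same side of the threshold, 24 lost the call, 20 gained it and 0 reversed. Most of the 55 were not called in the full fit, so most of the 736 are values that stayed uncalled. The 24 losses all fall on the called ones. The interaction term of Dmd is not among the 55. Other size factors, protein-coding scaling and no low-count filter changed no member's call. For 52 results of the other named genes, whose alternatives were added after seeing the data, 660 of 740 values kept their call, 61 lost it, 19 gained it and 0 reversed. When each library was left out in turn, the members called numbered 0 to 3 for Per1KO against WT and 0 to 2 for Per2KO against WT (1 each in the full fit), 0 to 1 for day 5 against day 3 (1), 0 to 3 for the interaction (1), 5 to 8 for day 3 and 6 to 8 for day 5 (7 each). For day 5 against day 3 the 6 knockout libraries alone gave 3, and for the interaction DESeq2 gave 2. The cause was not tested.

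Counts over all genes also moved: 2575 for Per1KO against WT (1154 without Per1KO day 5 to 3602 without WT day 0), 2652 for Per2KO (1158 without Per2KO day 3 to 3738 without WT day 0), 4664 for day 3 (2160 without Per2KO day 3 to 7684 with the knockouts alone), 6149 for day 5 (3728 without Per1KO day 5 to 8586 with the knockouts alone) and 659 for the interaction (51 without Per2KO day 0 to 2201 without WT day 5, DESeq2 1464). For day 5 against day 3 edgeR called 238 (1975 at an unadjusted p under 0.05), 0 without Per1KO day 5 and 1393 with the knockouts alone, and DESeq2 728. No member was called between the knockouts under any alternative. Per kb of transcript, the Sgca share on day 5 was 82.7% to 87.6% and that of Dmd at most 1.43%. The shallow WT libraries limit Dmd and Sgcd most: Dmd had 0 to 19 counts there and Sgcd 38 to 65.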

Other observations

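Nos1, which encodes the neuronal nitric oxide synthase that syntrophin anchors at the complex, was singled out after its values were seen. It had 93 counts (20.5 CPM, 95% Poisson interval 16.5 to 25.1) in the WT day 5 library. In the other 8 libraries it had 5 to 24 counts, 0.168 to 0.989 CPM, so that it missed the low-count filter and was not tested. The value rests on 1 library.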
